A study of Homo sapiens with 12 samples.

Results

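The genes of cholesterol and fatty acid synthesis were followed in 12 RNA-seq libraries of human pancreatic carcinoma cells, as 29 listed genes looked up by symbol in a deposited table of 63677 gene rows. The symbols of 28 were matched to a row and 27 passed the filter on low counts, among 17862 genes tested. The list held 7 genes of the mevalonate steps, 10 of the squalene and sterol steps, 7 of fatty acid synthesis, 4 regulators and 1 sterol carrier. ACACA was not matched and has no value here, and CYP51A1, at 0 to 6 counts per library, was not tested. In a reference annotation of another build, 83.2% of the exonic bases of CYP51A1 are shared with another gene on the same strand, and the part of this in its low counts was not tested.

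The study compared MIA PaCa-2 and PANC-1, established lines from human pancreatic carcinomas, each transfected with control siRNA or with 2 mixed siRNAs directed at RBM3, a cold-induced RNA-binding protein. The siRNA was used at 25 nM for 4.5 h after 72 h of culture, followed by recovery overnight, and each of the 4 groups had 3 libraries. The replicates are numbered 1, 2 and 4 in both control groups, 1, 2 and 5 in MIA PaCa-2 with RBM3 siRNA, and 1, 2 and 3 in PANC-1 with RBM3 siRNA. No samples of non-cancer pancreatic cells were analysed here. The labels mention RPMI1640 and DMEM without tying a medium to a line, and they do not state that replicates came from separate cultures, so the p-values measure the spread between these samples only, which may be technical.

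Cells build cholesterol from acetyl-CoA through mevalonate, isoprenoids, squalene and lanosterol, and build fatty acids from the same precursor through malonyl-CoA, followed by elongation and desaturation. Both branches are known to be switched on by the SREBP transcription factors, which SCAP escorts to the Golgi when sterols are scarce and which INSIG proteins hold back when sterols are plentiful. Tumour cells are known to draw on both synthesis and uptake for membrane lipid.

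Expression is given as CPM, counts scaled to library size with TMM factors, and total counts per library ran from 14217185 to 39652502. RBM3 measured 249.8, 277 and 207 CPM in the control libraries of MIA PaCa-2 and 44.4, 37.4 and 61.9 CPM with RBM3 siRNA, 5.10-fold lower (adjusted p = 0.0426). In PANC-1 it was at 567, 426 and 436 CPM and at 96.5, 194.7 and 83.0 CPM, 3.82-fold lower (log2 fold change -1.93, adjusted p = 0.516), and without RBM3 siRNA 3, described next, at -1.72 ± 0.30 on the log2 scale (SE, adjusted p = 1). The PANC-1 library RBM3 siRNA 3 did not look like its line. There the collagen gene COL1A2 reached 441 CPM, against 0.0461 to 1.67 CPM in the other 5 PANC-1 libraries and 899 to 1814 CPM in MIA PaCa-2. ALDH1A1 was at 682 CPM there and at 0.248 to 2.14 CPM in the other 5. These 2 genes were named after their values were seen, and the tests under RBM3 siRNA that use this library are given with and without it. Of the epithelial markers, the keratins KRT8, KRT18 and KRT19 were high in both lines, while KRT7, EPCAM and CDH1 averaged under 1 CPM in both MIA PaCa-2 groups. Summed hepatocyte markers stayed at or below 0.489 CPM in every library.

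The promoters of 5 members are shown because HMGCS1, MSMO1 and INSIG1 moved together between the libraries of MIA PaCa-2, SREBF2 encodes a main regulator and STARD4 separated the lines. The sequences are the 200 bases before the start site, from RefSeq on GRCh38.p14, written 5′ to 3′ on the gene's strand: chr5:43313413-43313612 (minus strand), chr4:165327469-165327668 (plus), chr7:155297678-155297877 (plus), chr22:41832905-41833104 (plus) and chr5:111512536-111512735 (minus). HMGCS1 has 2 listed start sites and the first is used. Capitals mark matches, on either strand, to the CCAAT box CCAAT, the E-box CACGTG and the sterol regulatory element TCACNCCAC.
HMGCS1: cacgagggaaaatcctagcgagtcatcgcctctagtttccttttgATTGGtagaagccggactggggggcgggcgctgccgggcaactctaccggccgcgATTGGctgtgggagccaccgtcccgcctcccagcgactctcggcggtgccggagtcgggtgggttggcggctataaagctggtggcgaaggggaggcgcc
MSMO1: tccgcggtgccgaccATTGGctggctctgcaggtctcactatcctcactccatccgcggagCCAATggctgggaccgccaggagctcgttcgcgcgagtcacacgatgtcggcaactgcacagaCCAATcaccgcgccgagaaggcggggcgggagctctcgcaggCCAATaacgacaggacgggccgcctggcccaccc
INSIG1: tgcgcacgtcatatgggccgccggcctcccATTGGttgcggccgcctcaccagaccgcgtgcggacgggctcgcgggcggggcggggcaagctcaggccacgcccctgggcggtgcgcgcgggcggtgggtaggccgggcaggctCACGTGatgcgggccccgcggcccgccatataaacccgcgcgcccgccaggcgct
SREBF2: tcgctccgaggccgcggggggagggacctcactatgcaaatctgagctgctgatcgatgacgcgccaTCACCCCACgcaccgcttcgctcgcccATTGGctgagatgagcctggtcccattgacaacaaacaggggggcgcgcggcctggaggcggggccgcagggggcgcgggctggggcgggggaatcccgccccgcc
STARD4: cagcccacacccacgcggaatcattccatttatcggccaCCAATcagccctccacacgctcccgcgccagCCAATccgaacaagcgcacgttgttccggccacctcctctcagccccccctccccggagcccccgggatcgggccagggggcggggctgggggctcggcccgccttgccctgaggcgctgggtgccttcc
MSMO1 has 4 CCAAT matches in this stretch, HMGCS1 and STARD4 have 2 each, and INSIG1 and SREBF2 have 1 each. Over the full window of 250 bases before and 50 after the start, CCAAT was present in 19 of the 25 members with a listed window (76.0%) and in 39.7% of 27305 genes. It was in 5 of 6 windows of the mevalonate steps, 7 of 8 of the squalene and sterol steps, 4 of 6 of the fatty acid steps and 2 of 4 of the regulators. The exact letters TCACNCCAC were found in SREBF2 alone, from 133 to 125 bases before its start, and in 1.39% of all genes. SREBP sites are known to vary around these letters. The E-box was in 4 of 25 member windows (16.0%) against 8.77% of all genes, and the GC box GGGCGG, not capitalised, in 24 of 25 (96.0%) against 48.3%. Motifs were searched independently of each other, so overlapping matches could both count. A gene counted if any of its listed windows matched, with 34 windows for the 25 members. The shares over all genes take in genes whatever their expression, and shares among genes expressed in these cells were not computed. ACAT2, FASN, FDFT1 and SQLE had no window in the table.

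Per length of exon, the stearoyl-CoA desaturase SCD was the most abundant member in both lines. Its level in RPKM, the CPM value per kilobase of exon, was 274 in MIA PaCa-2 (range 224 to 367 over 6 libraries) and 277 in PANC-1 (216 to 388 over 5, without RBM3 siRNA 3). In MIA PaCa-2 it was followed by the citrate lyase ACLY at 132 RPKM (114 to 154), the fatty acid synthase FASN at 123 (74.0 to 167), the sterol isomerase EBP at 78.6 (52.3 to 89.4) and the squalene synthase FDFT1 at 65.8 (39.0 to 86.2). FDPS came next at 61.7 RPKM, and neighbours in this order overlapped except SCD and ACLY. In PANC-1 the next were FASN at 111 RPKM (99.8 to 139), the sterol reductase DHCR7 at 95.3 (72.9 to 116), ACLY at 56.2 (48.8 to 65.0), the farnesyl diphosphate synthase FDPS at 54.2 (41.9 to 63.9) and the desaturase FADS2 at 46.1 (37.0 to 51.7). Neighbours in this order overlapped except SCD and FASN, and DHCR7 and ACLY. FADS2 was 24th of the 28 matched members in MIA PaCa-2, at 6.29 RPKM (5.05 to 7.83), and 6th in PANC-1. FDFT1 went from 5th to 18th, at 21.3 RPKM (18.7 to 23.5), and its ranges in the lines did not overlap. The lowest tested members in MIA PaCa-2 were STARD4, at 0.000698 RPKM, and ELOVL6, an elongase, at 0.0991. In PANC-1 they were ELOVL6, at 0.390 RPKM, and HSD17B7, at 5.07, just below STARD4 at 5.21. Exon lengths came from GENCODE 29, a release for another build than the counts, so the order between genes of similar level is approximate.

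Under RBM3 siRNA no member passed the test in MIA PaCa-2 or in PANC-1, at an adjusted p of 0.05 from edgeR's quasi-likelihood test with Benjamini-Hochberg adjustment over all genes tested. Over all genes, 0.0112% were called in MIA PaCa-2, and 0% were called for PANC-1. At an unadjusted p of 0.05 the count of members was also 0 in both lines, beside 2.94% and 4.12% of all genes, and DESeq2 and limma-voom called 0 members as well. The median log2 fold change of the 27 members was -0.01 in MIA PaCa-2, with 12 above 0, and 0.10 in PANC-1, with 16 above 0. Over all genes tested the medians were -0.00 and 0.03. Without PANC-1 RBM3 siRNA 3, 23 of 27 members were above 0 in PANC-1, and the median stayed at 0.10 beside 0.00 over all genes. The remaining siRNA libraries were not alike. Against the line mean without RBM3 siRNA 3, RBM3 siRNA 2 was above for 19 of 26 members (73.1%, beside 51.1% of all genes). RBM3 siRNA 1 was above for 9 of 26 (34.6%, beside 58.9%). Of the controls, control 1 was above for 23 of 26, control 2 for 4 and control 4 for 8. By role, the PANC-1 medians were -0.01 for the mevalonate steps, 0.10 for the squalene and sterol steps, 0.20 for the fatty acid steps and 0.17 for the regulators. Without RBM3 siRNA 3 these medians were 0.03, 0.10, 0.20 and 0.12. The median SE of a member was 0.26 on the log2 scale in MIA PaCa-2, so an absence of calls does not show that levels were the same.

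**Figure D1:**
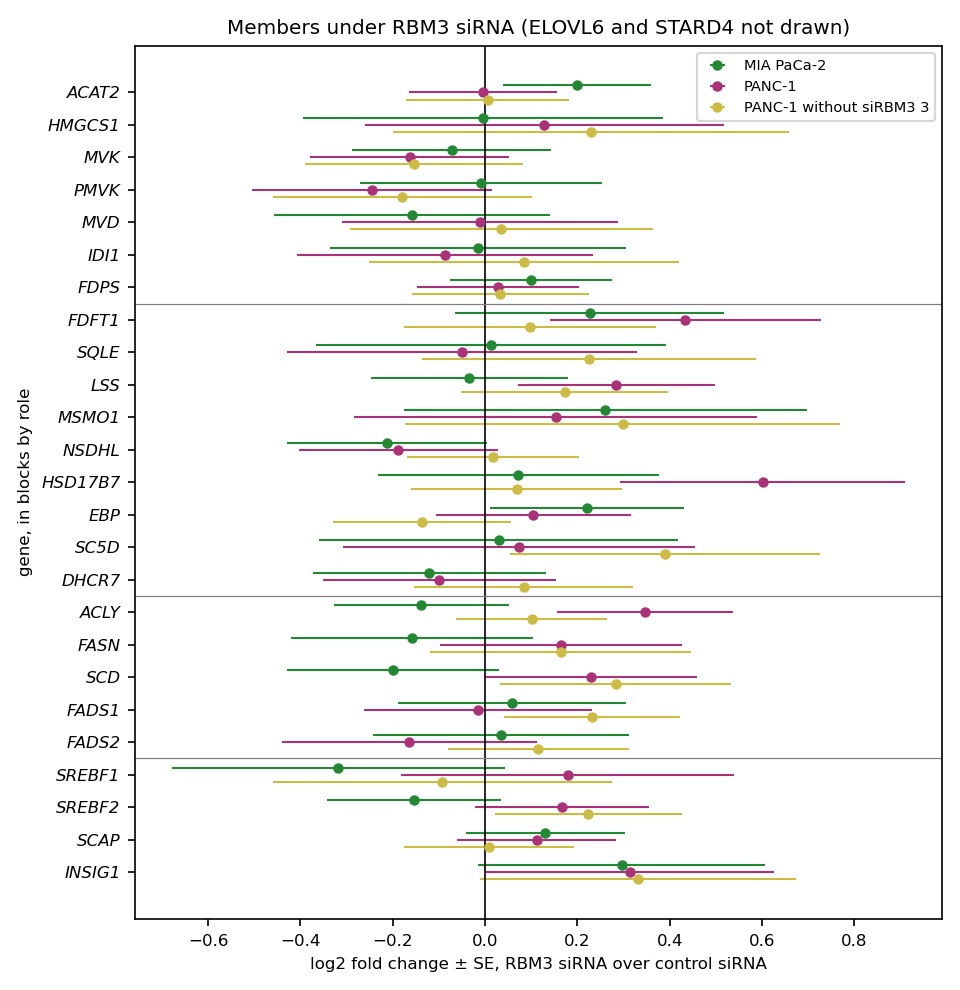
Log2 fold change of RBM3 siRNA over control siRNA (x axis, points with bars of 1 SE) for 25 members in blocks by role (y axis), for MIA PaCa-2, for PANC-1, and for PANC-1 without RBM3 siRNA 3. No point passed the test. Leaving out that library moved HSD17B7 from 0.60 to 0.07 and FDFT1 from 0.43 to 0.10.

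In MIA PaCa-2 the smallest unadjusted p belonged to ELOVL6, which was at 2.43, 0.393 and 0.126 CPM in control libraries and at 0.188, 0.505 and 0.701 CPM with RBM3 siRNA. Control 1 alone was high, and the groups overlapped. The log2 fold change was -1.24 ± 0.83 (SE, adjusted p = 1), and without control 1 it was 0.81. STARD4, next in order of p, had 1 count in the control libraries and 0 with RBM3 siRNA, so no fold is given. ACAT2, the thiolase that makes acetoacetyl-CoA, was at 91.2, 134.8 and 128.7 CPM and at 141.1, 141.5 and 124.2 CPM. Its log2 fold change was 0.20 (95% interval -0.11 to 0.51, adjusted p = 1). EBP was at 126, 202 and 197 CPM and at 192, 205 and 215 CPM, a log2 fold change of 0.22 (95% interval -0.19 to 0.63, adjusted p = 1). For both genes the groups overlapped and control 1 was the lowest library. The only member whose MIA PaCa-2 groups did not overlap was NSDHL, a dehydrogenase of sterol demethylation, beside 8.04% of all genes. It was at 42.0, 50.9 and 44.1 CPM and at 38.2, 39.4 and 40.5 CPM, a log2 fold change of -0.21 ± 0.22 (SE, adjusted p = 1).

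In PANC-1 the 4 smallest p-values among members belonged to HSD17B7, ACLY, FDFT1 and LSS, and in each of them RBM3 siRNA 3 was the highest library. HSD17B7, a ketoreductase of sterol demethylation, was at 28.5, 20.9 and 21.5 CPM in control libraries and at 24.9, 25.3 and 57.5 CPM with RBM3 siRNA. Its log2 fold change was 0.60 ± 0.31 (SE, adjusted p = 1), and 0.07 ± 0.23 without RBM3 siRNA 3. ACLY, which makes cytosolic acetyl-CoA, was at 303, 295 and 255 CPM and at 276, 339 and 468 CPM, a log2 fold change of 0.35 ± 0.19 (SE, adjusted p = 1) that became 0.10 ± 0.16 without it. FDFT1 was at 111, 97.1 and 113 CPM and at 122, 109 and 202 CPM, a log2 fold change of 0.43 ± 0.29 (SE, adjusted p = 1) and 0.10 ± 0.27 without that library. LSS, the lanosterol synthase, was at 168, 121 and 145 CPM and at 142, 187 and 199.7 CPM, a log2 fold change of 0.28 ± 0.21 (SE, adjusted p = 1) and 0.17 ± 0.22 without it. Under control siRNA all 4 genes were lower in PANC-1, as given below, and the library lay on the MIA PaCa-2 side. INSIG1 had no overlap, at 158, 120.1 and 147 CPM and at 180.4, 180.5 and 168 CPM, a log2 fold change of 0.31 (95% interval -0.30 to 0.92), and 0.33 (-0.34 to 1.00) without RBM3 siRNA 3. MVK, the mevalonate kinase, was below in all siRNA libraries, at 42.6, 39.9 and 41.9 CPM and at 39.8, 35.5 and 35.7 CPM, a log2 fold change of -0.16 ± 0.22 that became -0.15 ± 0.24 without it. The share of all genes without overlap in PANC-1 was 6.52%. Without RBM3 siRNA 3 the smallest unadjusted p of a member was 0.249, for FADS1, and again 0 members were called.

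No member was called for a difference between the lines in its response to RBM3 siRNA, and 0% of all genes were. Given the SEs below, an absence of calls does not show that the responses were the same. At an unadjusted p of 0.05 the count was 0 members, beside 2.98% of all genes. The smallest p-values were those of ACLY, at a difference of 0.48 ± 0.27 (log2, PANC-1 minus MIA PaCa-2, SE, adjusted p = 1), ELOVL6 at 1.70 ± 1.11, and SCD at 0.43 ± 0.33. Without PANC-1 RBM3 siRNA 3 the ACLY difference was 0.24 ± 0.22, that of ELOVL6 1.96 ± 1.13 and that of SCD 0.48 ± 0.34. Without MIA PaCa-2 control 1 the ELOVL6 difference was -0.35.

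Between the lines under control siRNA 13 of the 27 members passed the test, 7 higher and 6 lower in PANC-1, beside 50.8% of all genes (26.0% higher and 24.8% lower). The members' share was thus close to that of all genes, and their median log2 fold change was -0.10, against 0.00 over all genes. They were spread unevenly over the steps: 0 of 7 tested in the mevalonate steps, 8 of 9 in the squalene and sterol steps, 3 of 6 in fatty acid synthesis, 1 of 4 regulators, and the sterol carrier. Of the 13, 12 had no overlap between the control groups and SREBF2 did, and 2 further members, PMVK and SCAP, had no overlap without passing the test, beside 61.5% of all genes without overlap. With RBM3 siRNA 12 members passed, 7 higher and 5 lower, beside 43.6% of all genes (24.2% and 19.3%). Without PANC-1 RBM3 siRNA 3 these were 8 higher and 6 lower of 27, beside 50.2% of all genes.

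**Figure D2:**
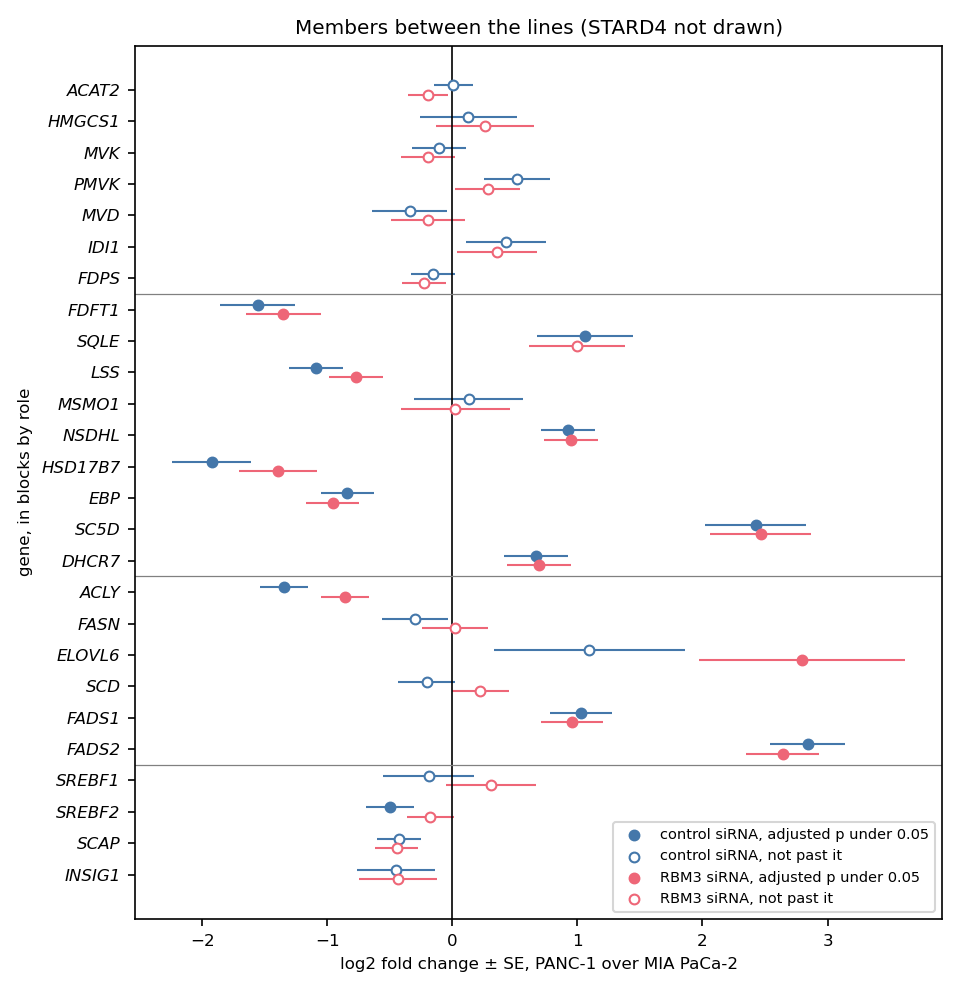
Log2 fold change of PANC-1 over MIA PaCa-2 (x axis, bars of 1 SE) for 26 members in blocks by role (y axis), under control siRNA and under RBM3 siRNA. Filled points passed an adjusted p of 0.05. All mevalonate steps are open, and the sterol steps lie on both sides of 0.

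The mevalonate steps, from acetoacetyl-CoA to farnesyl diphosphate, held none of the called members. HMGCS1, the synthase at the entry to the pathway, measured 44.0, 58.2 and 104 CPM in MIA PaCa-2 control libraries and 99.6, 61.4 and 64.2 CPM in PANC-1, a log2 fold change of 0.13 (95% interval -0.64 to 0.89). ACAT2 was 118 ± 23.6 CPM against 119 ± 6.49 CPM (SD, n = 3 each), a log2 fold change of 0.01 (95% interval -0.30 to 0.32). The widest difference in this block was that of PMVK, the phosphomevalonate kinase, at 20.9, 28.1 and 20.6 CPM against 34.0, 31.6 and 34.1 CPM (log2 fold change 0.52 ± 0.26, adjusted p = 0.117). MVK, MVD, IDI1 and FDPS had log2 fold changes of -0.10, -0.34, 0.43 and -0.15. FDPS has 8 named pseudogenes and shares 18.6% of its exonic bases with a gene on the other strand. ACAT2 shares 52.3%, HMGCS1 14.95% and IDI1 14.8% in this way, and reads of such genes cannot be told apart without a known strand setting.

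In the squalene and sterol steps 4 genes were higher and 4 lower in PANC-1, and MSMO1 was the tested gene that did not pass. The transcripts for squalene synthesis and for its epoxidation differed between the lines in opposite directions. FDFT1, which joins farnesyl diphosphates to squalene, measured 203, 316 and 427 CPM in MIA PaCa-2 and 111, 97.1 and 113 CPM in PANC-1, 2.94-fold lower (log2 fold change -1.56 ± 0.30, adjusted p = 0.00109). SQLE, the squalene epoxidase, was at 54.2, 68.2 and 97.5 CPM and at 222, 119 and 117 CPM, 2.09-fold higher (1.06 ± 0.38, adjusted p = 0.0348). Its call was lost without MIA PaCa-2 control 1 or 2 or without PANC-1 control 1 (log2 fold change 0.91, 1.02 and 0.70). LSS, which closes the sterol rings, was at 231, 354 and 340.4 CPM and at 168, 121 and 145 CPM, 2.13-fold lower (-1.09 ± 0.22, adjusted p = 0.00131).

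Within the removal of methyl groups from lanosterol, the transcripts of the enzymes also differed in direction. MSMO1, the methyl sterol oxidase, was at 49.9, 71.9 and 159 CPM and at 131, 76.4 and 99.7 CPM (log2 fold change 0.13, 95% interval -0.73 to 0.99). NSDHL, which acts with it, was at 42.0, 50.9 and 44.1 CPM and at 100.4, 81.5 and 77.9 CPM, 1.90-fold higher (0.92 ± 0.22, adjusted p = 0.00376). HSD17B7 was at 72.0, 86.6 and 111 CPM and at 28.5, 20.9 and 21.5 CPM, 3.80-fold lower (-1.93 ± 0.32, adjusted p = 0.000402). It has 2 named pseudogenes that could share its reads.

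For the last steps to cholesterol, transcript levels in PANC-1 were higher for the desaturase and the reductase and lower for the isomerase. EBP was at 126, 202 and 197 CPM and at 98.0, 90.4 and 104 CPM, 1.79-fold lower (-0.84 ± 0.21, adjusted p = 0.00562). SC5D, the desaturase that follows it, was at 16.5, 12.4 and 21.4 CPM and at 126, 65.8 and 78.1 CPM, 5.37-fold higher (2.42 ± 0.40, adjusted p = 0.000436). DHCR7, the reductase that yields cholesterol, was at 165, 266 and 296 CPM and at 482, 303 and 371 CPM, 1.59-fold higher (0.67 ± 0.25, adjusted p = 0.0423). The DHCR7 call was lost when any 1 of 5 libraries was left out, among them MIA PaCa-2 control 1 (log2 fold change 0.48) and PANC-1 control 1 (0.49).

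Among the fatty acid genes, the desaturases of polyunsaturated fatty acids were higher in PANC-1 and the acetyl-CoA supplying enzyme was lower. FADS2 measured 58.2, 75.7 and 71.6 CPM in MIA PaCa-2 and 550.1, 408 and 513 CPM in PANC-1, 7.16-fold higher (2.84 ± 0.30, adjusted p = 1.26e-05). FADS1, its neighbour on chromosome 11, was at 116, 153 and 158 CPM and at 340.1, 256 and 274 CPM, 2.04-fold higher (1.03 ± 0.25, adjusted p = 0.0045). In the reference annotation 5.57% of the exonic bases of FADS1 overlap a gene on the other strand, FADS2. ACLY was at 594, 805 and 766 CPM and at 303, 295 and 255 CPM, 2.54-fold lower (-1.35 ± 0.19, adjusted p = 0.000157). FASN, which makes palmitate, was at 693, 1394 and 1566 CPM and at 1079, 937 and 951 CPM (log2 fold change -0.30, 95% interval -0.81 to 0.21). SCD, which makes monounsaturated fatty acids, was at 1208, 1542 and 1966 CPM and at 1718, 1160 and 1211 CPM (-0.21, 95% interval -0.66 to 0.24). The groups of FASN and SCD overlapped. ELOVL6 was at 2.43, 0.393 and 0.126 CPM and at 3.47, 1.46 and 1.93 CPM (1.09 ± 0.76, adjusted p = 0.25). Without MIA PaCa-2 control 1 it passed the test.

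Of the regulators, SREBF2, the SREBP of sterol synthesis, measured 191, 266 and 285 CPM in MIA PaCa-2 and 209, 147 and 168 CPM in PANC-1, 1.41-fold lower (-0.50 ± 0.19, adjusted p = 0.0424). Its control groups overlapped, and the call was lost in 13 of 21 alternative analyses. SCAP was at 82.1, 105 and 99.4 CPM and at 71.6, 73.0 and 69.1 CPM, without overlap (-0.42 ± 0.17, adjusted p = 0.0572). SREBF1 and INSIG1 had log2 fold changes of -0.19 (95% interval -0.90 to 0.52) and -0.45 (-1.07 to 0.16). All 4 values were below 0.

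STARD4, a cytosolic carrier of sterols, was the member that separated the lines most sharply. It was at 28.3, 25.9 and 28.0 CPM in PANC-1 control libraries, with 662, 373 and 607 counts. In MIA PaCa-2 control 1 it had 1 count, and it had 0 in each of the other 5 libraries of that line. The ratio of PANC-1 to MIA PaCa-2 under control siRNA was 2019, with a counting interval of 362 to 79778 (95%, exact), since it rests on that 1 count. Without MIA PaCa-2 control 1 the line had 0 counts under control siRNA and PANC-1 was at least 286-fold higher, with 3 counts over the group as the MIA PaCa-2 floor. With RBM3 siRNA the PANC-1 libraries had 969, 1177 and 473 counts against 0 in all MIA PaCa-2 libraries, at least 692-fold higher against the same floor. Leaving out 1 library moved this bound between 391-fold, without MIA PaCa-2 RBM3 siRNA 2, and 848-fold, without PANC-1 RBM3 siRNA 3, and it was 454-fold without MIA PaCa-2 RBM3 siRNA 1. The level in PANC-1 RBM3 siRNA 3, 14.6 CPM, was below the 25.9 to 36.5 CPM of the other 5 PANC-1 libraries.

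**Figure D3:**
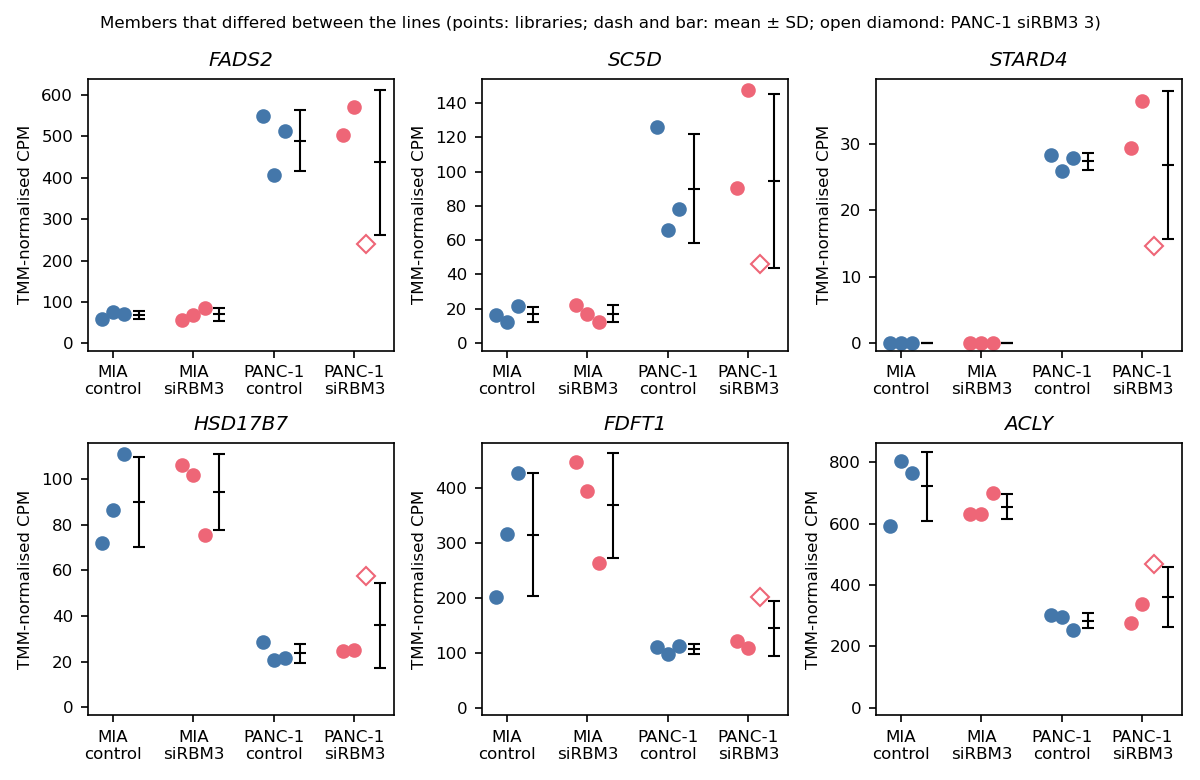
TMM-normalised CPM (y axis) of FADS2, SC5D, STARD4, HSD17B7, FDFT1 and ACLY in each library (points) of the 4 groups (x axis), with mean ± SD over 3 libraries beside them. The open diamond is PANC-1 RBM3 siRNA 3, which lay between the lines in all 6 genes.

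With RBM3 siRNA the differences between the lines ran the same way for each of the members called under both conditions. FADS2 measured 55.6, 68.5 and 86.3 CPM in MIA PaCa-2 and 502, 570.4 and 239.7 CPM in PANC-1, 6.24-fold higher (adjusted p = 2.25e-05). SC5D was at 21.96, 17.0 and 12.3 CPM and at 90.2, 147.6 and 46.2 CPM, 5.53-fold higher (adjusted p = 0.000512). FDFT1 was 2.55-fold lower, HSD17B7 2.63-fold lower and ACLY 1.82-fold lower, with adjusted p-values of 0.00361, 0.00389 and 0.00386. EBP was 1.94-fold and LSS 1.71-fold lower, and NSDHL was 1.93-fold, FADS1 1.94-fold and DHCR7 1.62-fold higher. Without PANC-1 RBM3 siRNA 3 the differences were larger: FADS2 was 7.64-fold, SC5D 6.92-fold, NSDHL 2.24-fold, FADS1 2.31-fold and DHCR7 1.85-fold higher, and FDFT1 was 3.20-fold, HSD17B7 3.79-fold, ACLY 2.14-fold, EBP 2.28-fold and LSS 1.83-fold lower. ELOVL6 passed here, at 0.188, 0.505 and 0.701 CPM against 2.18, 5.21 and 2.14 CPM (2.80 ± 0.83, adjusted p = 0.017), on 5 to 17 counts per MIA PaCa-2 library, and was at 3.02 ± 0.85 without PANC-1 RBM3 siRNA 3. SQLE did not pass (1.00 ± 0.38, adjusted p = 0.0504), and passed without PANC-1 RBM3 siRNA 3 (1.28 ± 0.36, adjusted p = 0.0099). SREBF2 did not pass with that library (-0.18 ± 0.19) or without it (-0.11 ± 0.20). The call of LSS was lost without PANC-1 RBM3 siRNA 1 (-0.62), that of ELOVL6 when any 1 of 3 libraries was left out and that of DHCR7 when any 1 of 6 was. Without PANC-1 RBM3 siRNA 3, SCAP also passed (-0.53 ± 0.19, adjusted p = 0.0308).

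PANC-1 RBM3 siRNA 3 lay outside the range of the other 5 PANC-1 libraries, on the MIA PaCa-2 side, for 12 of the 13 members called under control siRNA (92.3%), beside 74.6% of the 9080 genes called in that comparison. On the way from the mean of those 5 libraries to the MIA PaCa-2 mean, it stood at 89.8% for SQLE, 86.6% for DHCR7, 61.2% for FADS2, 50.6% for STARD4, 49.0% for HSD17B7 and 30.9% for LSS. The median over the 13 was 50.6%, beside 44.6% over all genes called, and SREBF2, at -22.9%, was the exception. Its position for the non-members COL1A2 and ALDH1A1 was 31.5% and 51.9%. Over all 12 libraries the lines did not overlap for 9 of 27 members (5 above and 4 below in PANC-1), beside 40.5% of all genes. Without this library they did not overlap for 13 (7 above and 6 below), beside 49.2%.

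Several sterol genes, though not all, shared an order of libraries within a line. In MIA PaCa-2, control 4 and siRNA 1 gave HMGCS1 levels of 104 and 101 CPM, control 1 and siRNA 5 gave 44.0 and 35.8 CPM, and control 2 and siRNA 2 lay between them with 58.2 and 68.1 CPM. SQLE followed with 97.5 and 98.0 CPM, 54.2 and 51.3 CPM, and 68.2 and 72.2 CPM in the same pairs. MSMO1 was at 159 and 157 CPM, at 49.9 and 50.8 CPM, and at 71.9 and 127 CPM. INSIG1 was at 281 and 311 CPM, at 103 and 156 CPM, and at 199.7 and 249 CPM. Each pair joins a control and an siRNA library, so the order crosses the siRNA groups.

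Control 4 and RBM3 siRNA 1 were the highest pair of MIA PaCa-2 libraries for 9 of 25 members (36.0%), and for 10.4% of all genes at 1 CPM or more in that line. These were HMGCS1, IDI1, FDFT1, SQLE, MSMO1, SC5D, HSD17B7, FADS1 and INSIG1. The pair was chosen after the values were seen, so the share is a description only. Over the 6 libraries, 6 of the other 15 mevalonate and sterol genes had a correlation with HMGCS1 of 0.8 or more (Pearson, log2 CPM), while 7 were under 0.3: MVK, PMVK, MVD, FDPS, LSS, NSDHL and EBP. The lowest of the 6 was SC5D at 0.841, a value reached by 6.23% of the 9691 better expressed genes of that line. The 6 libraries also differ in depth. SREBF1, whose product drives mainly fatty acid genes, ran differently, lowest in RBM3 siRNA 1 at 140.7 CPM and highest in control 2 and RBM3 siRNA 5 at 411 and 403 CPM. FASN followed neither order, at 1566 CPM in control 4 but 828 CPM in RBM3 siRNA 1. Control 1, the deepest library at 39652502 counts, was below the line mean for 24 of 25 members, beside 53.9% of all genes, with a median ratio of 0.770, against 0.980 over all genes. Control 4, at 16300386 counts, was above it for 23 of 25, beside 56.7% of all genes. The part of depth in this was not tested. Control 1 also differed in some markers, named after their values were seen. The endothelial gene CDH5 was at 7.57 CPM there, against 0 to 0.584 CPM elsewhere in the line. The leukocyte gene CD14 was at 20.5 CPM, against 3.23 to 7.13 CPM, while LYZ was at 1.52 CPM, against 5.10 to 8.01 CPM.

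**Figure D4:**
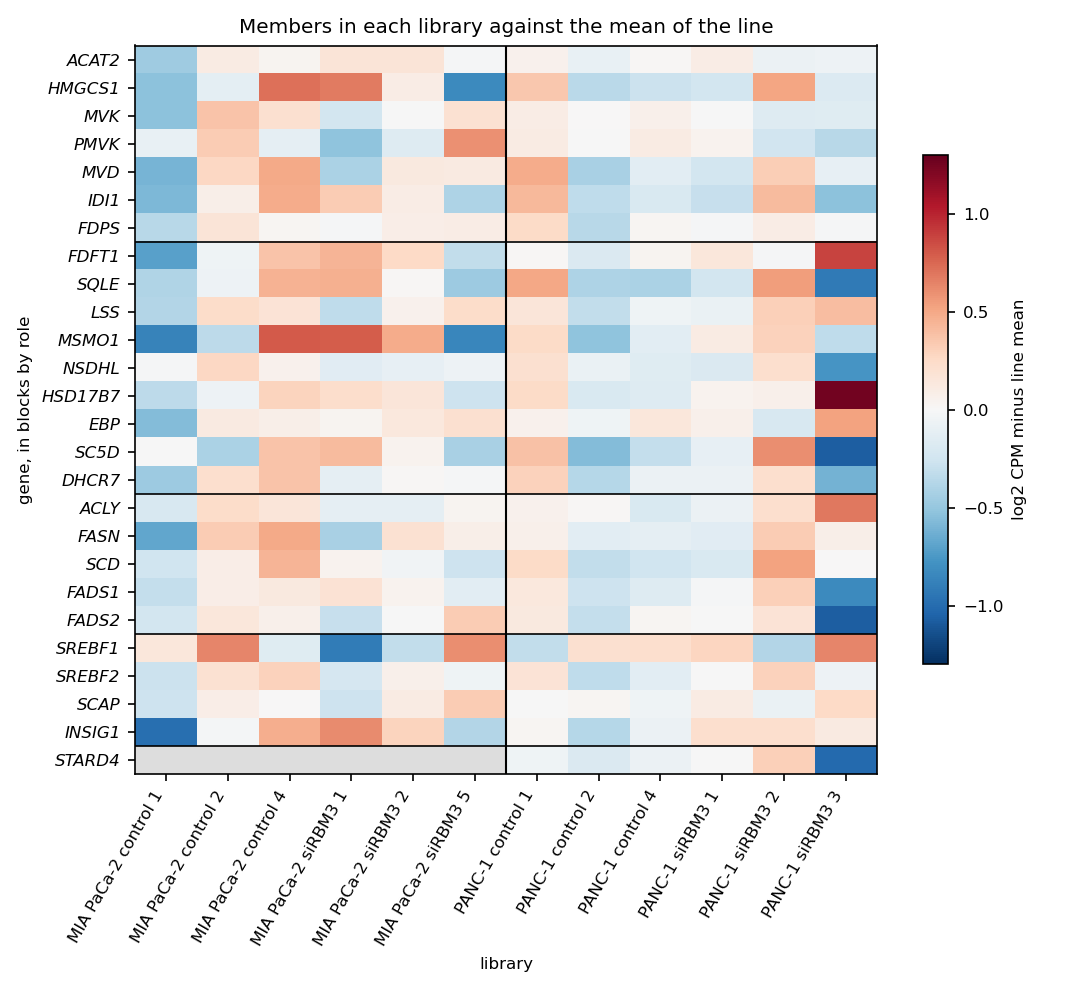
Log2 CPM of 26 members (rows, in blocks by role) minus the mean of each over the line, in each library (columns). ELOVL6 and CYP51A1, at low levels, and the unmatched ACACA are not drawn. For PANC-1 the mean is over the 5 libraries other than RBM3 siRNA 3, and STARD4 is grey in MIA PaCa-2, where it had at most 1 count. Control 1 of MIA PaCa-2 is below the line mean in nearly all rows, and RBM3 siRNA 3 of PANC-1 has the widest deviations of its line.

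In PANC-1 a pair of libraries again stood above the rest, control 1 and RBM3 siRNA 2. SQLE was at 222 and 228 CPM there, and at 119, 117 and 132 CPM in control 2, control 4 and RBM3 siRNA 1. IDI1 was at 141 and 139.6 CPM, against 83.1, 91.2 and 85.0 CPM. SC5D was at 126 and 148 CPM, against 65.8, 78.1 and 90.2 CPM, and SCD at 1718 and 2082 CPM, against 1160, 1211 and 1261 CPM. SREBF1 was lowest in the same pair, at 212 and 202 CPM, against 304, 308 and 320.1 CPM. Of 27 members, 18 had this pair as their highest of 5 libraries (66.7%, beside 27.6% of all genes) and SREBF1 alone had it as its lowest (3.7%, beside 30.2%). This pair, too, was chosen after the values were seen, and it joins a control and an siRNA library. Over the 5 libraries, 8 of the other 15 mevalonate and sterol genes had a correlation with HMGCS1 of 0.8 or more, and 5 were under 0.3. The lowest of the 8 was MSMO1 at 0.805, a value reached by 25.2% of the 9884 better expressed genes of that line.

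**Figure D5:**
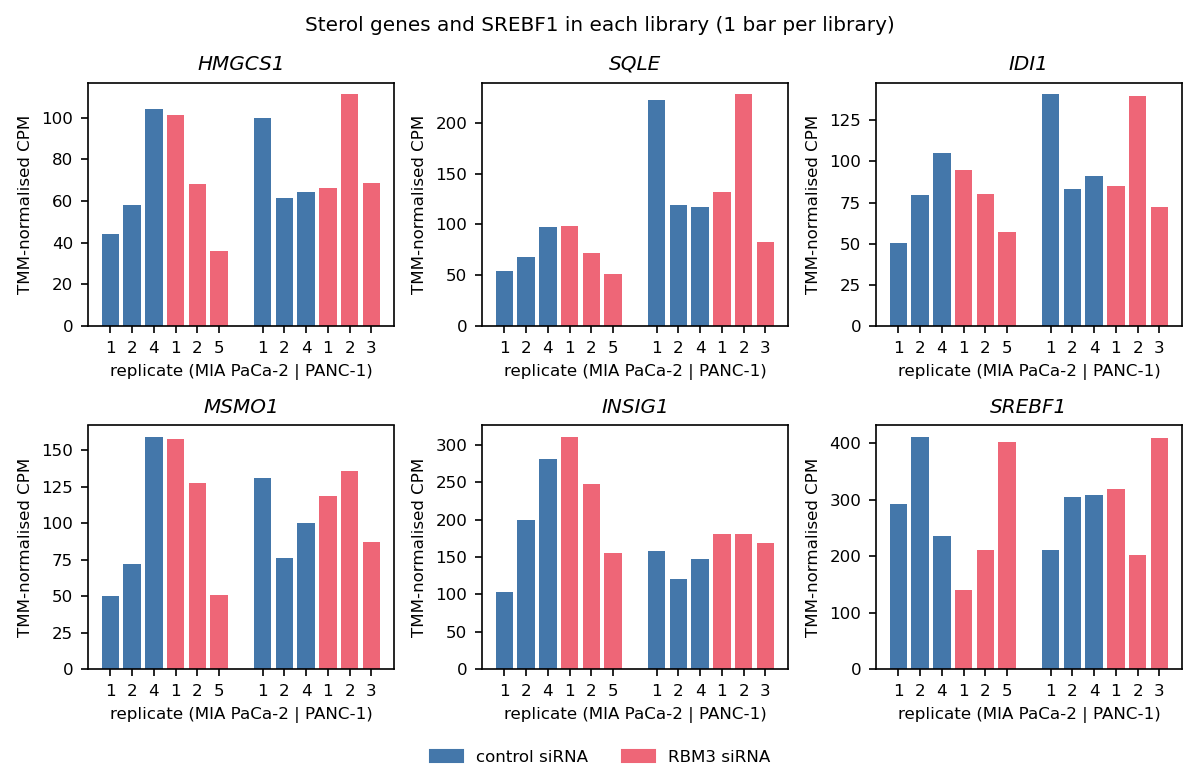
TMM-normalised CPM (y axis) of HMGCS1, SQLE, IDI1, MSMO1, INSIG1 and SREBF1, with 1 bar per library and replicate numbers on the x axis. HMGCS1 and SQLE are highest in control 4 and RBM3 siRNA 1 of MIA PaCa-2 and in control 1 and RBM3 siRNA 2 of PANC-1, where SREBF1 is low.

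Genes around the pathway differed between the lines under control siRNA in both directions, and the counts below stand beside the 26.0% of all genes called higher and 24.8% called lower. Of 9 genes of SREBP processing and sterol-regulated degradation, 2 were higher and 4 lower in PANC-1. MBTPS2, the protease that makes the second cut of SREBPs, was at 41.4 ± 1.63 CPM in PANC-1 against 130 ± 20.1 CPM in MIA PaCa-2 (log2 fold change -1.65 ± 0.19, adjusted p = 2.61e-05). ERLIN2, an ER lipid-raft protein, was at 11.2 ± 0.75 against 85.6 ± 3.16 CPM (-2.94 ± 0.39, adjusted p = 8.27e-05), and the ubiquitin ligase RNF145 was at 118 ± 20.9 against 42.4 ± 3.81 CPM (1.47 ± 0.23, adjusted p = 0.000275). Of 11 other sterol and isoprenoid genes, 2 were higher and 1 lower, led by NUS1 (0.74 ± 0.21), GGPS1 (0.66 ± 0.19) and TMEM97 (-0.43 ± 0.14). Each of these 3 calls was lost without at least 1 library: NUS1 without PANC-1 control 1 (0.58), GGPS1 without PANC-1 control 4 (0.57), and TMEM97 without MIA PaCa-2 control 1 (-0.36), PANC-1 control 2 (-0.39) or PANC-1 control 4 (-0.38). Of 22 other fatty acid synthesis genes, 3 were higher and 6 lower. The elongase ELOVL2 was at 91.7 ± 8.11 against 0.438 ± 0.425 CPM (7.41 ± 0.61, adjusted p = 1.72e-06), while MLXIPL, a carbohydrate-responsive transcription factor, and the desaturase SCD5 were lower (-2.17 ± 0.32 and -1.80 ± 0.27).

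Further from synthesis, 1 of 7 genes of sterol efflux and LXR targets was higher and 2 were lower, with SMPDL3A at 3.56 ± 0.74, LPCAT3 at -0.71 ± 0.20 and ABCG1 at -2.12 ± 0.79, beside 50.8% of all genes called. The ABCG1 call was lost in 7 of 21 alternative analyses, and without MIA PaCa-2 control 1 its value was -1.05 (edgeR adjusted p = 0.299). Of 9 genes of cholesterol uptake, trafficking and esterification, 2 were higher and 4 lower. CYP27A1, a sterol hydroxylase, was at 5.66 ± 0.932 against 0.196 ± 0.103 CPM (4.89 ± 0.61, adjusted p = 5.58e-05), and the lysosomal lipase LIPA was at 312 ± 43.5 against 1005 ± 63.9 CPM (-1.69 ± 0.23, adjusted p = 0.00012). OSBP, an oxysterol-binding protein, was lower (-0.98 ± 0.22). Of 9 fatty acid oxidation genes, 2 were higher and 4 lower, with the carnitine palmitoyltransferase CPT1A at 281 ± 57.7 against 89.3 ± 9.23 CPM (1.66 ± 0.23, adjusted p = 0.000111), HADHA at -0.67 ± 0.14 and ETFDH at 0.60 ± 0.17, a call lost without PANC-1 control 2 (0.48). None of these 6 lists had a gene called by edgeR under RBM3 siRNA in either line. At an unadjusted p of 0.05 the count was 1 in MIA PaCa-2 (2.94% of all genes), MBTPS1, and 4 in PANC-1 (4.12% of all genes), MBTPS1, MBTPS2, ERLIN2 and ACSL1, all named after their values were seen. MBTPS1, the protease that makes the first cut of SREBPs, measured 190.4, 155 and 153 CPM in the MIA PaCa-2 controls and 269.7, 251 and 281 CPM with RBM3 siRNA, a log2 fold change of 0.68 ± 0.16 (SE, edgeR adjusted p = 0.782). In PANC-1 it measured 126, 103 and 104 CPM and 162, 148 and 208 CPM (0.64 ± 0.16, edgeR adjusted p = 1), with no overlap in either line. Without PANC-1 RBM3 siRNA 3 its PANC-1 value was 0.46 ± 0.17 and it was the 1 gene of the 6 lists at an unadjusted p of 0.05 there, beside 1.07% of all genes. ERLIN2 was highest in that library, at 45.9 CPM against 10.6 to 14.5 CPM in the other 5.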

How the data were processed

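RNA was sequenced from 2 lines under 2 siRNA conditions, with TruSeq v2 libraries read from both ends at 75 bp. The labels name both total and cytoplasmic RNA. The authors deposited raw read counts per Ensembl gene in 1 table, made with STAR 2.5.2a, Picard, featureCounts and Subread on hg19/GRCh37, per the submitters' processing notes. The sources used here give no annotation release or strand setting. The name of the deposited table holds the term markdup, for marked duplicates, without saying whether marked reads were counted. These settings could change counts of abundant and overlapping genes. A name table matched 52181 of 63677 rows.

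Groups were taken from the labels. edgeR 4.0.16 in R 4.3.3 (TMM scaling, filterByExpr with a minimum count of 10) fitted 12 libraries as 4 group means (residual degrees of freedom, 8), and two-sided quasi-likelihood F-tests were adjusted by Benjamini-Hochberg at 0.05 over 17862 genes. The SE, an approximation, was taken as |log2 fold change| over the root of the F statistic, and fold changes are edgeR's shrunken by its small prior count. The model was tested on simulated counts with the same fixed dispersion for all genes and no aberrant library. These data differ in both, so the simulation says little about error rates here. Intervals are 95%. Those of log2 fold changes are the SE times a normal quantile on each side, and so carry the spread between libraries. The counting interval of the STARD4 ratio and floors of 3 counts (0.0757 to 0.211 CPM per library) cover counting error only. Replicates of a group differed beyond sampling noise (chi-square per degree of freedom 10.6 to 164.5).

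All 29 members are described by role. Per-library values are given for members past the threshold, or the 4 with the smallest p where none passed, and each other list names at most 3 genes past it. The members and lists were chosen with earlier results of these data known. Alternatives were DESeq2 1.42.0, limma-voom (limma 3.58.1), other scalings and filters, only the libraries of a comparison, a replicate block and the removal of each library. DESeq2 without PANC-1 RBM3 siRNA 3 was added after seeing the data.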

Additional observations from a re-analysis of the deposited data

How the results depend on the processing

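The counts of members called kept within 1.5 times of their value in all 208 alternative counts, and under RBM3 siRNA and for the difference of the responses they were 0 in each. Between the lines under control siRNA, leaving out 1 library gave 5 to 8 members higher and 5 to 9 lower, and with RBM3 siRNA 5 to 8 higher and 4 to 6 lower. Without MIA PaCa-2 control 1, FASN, SCAP, INSIG1 and ELOVL6 joined the calls under control siRNA and SQLE and DHCR7 left them. Of the 13 members called under control siRNA, 10 kept their call in all 21 alternatives, and of the 12 called with RBM3 siRNA, 9 did. SREBF2 was lost under DESeq2 (-0.45), limma-voom (-0.47) and median-of-ratios factors (-0.46). Of 1152 alternative log2 fold changes of named genes, 1087 stayed on their side of the threshold with their direction, 59 lost and 4 gained the call, and 2 reversed. Both reversals were of ELOVL6 without MIA PaCa-2 control 1. Leaving out 1 library gave it values of -1.73 to 0.81 under RBM3 siRNA in that line and of -0.35 to 2.19 for the difference of the responses. The RBM3 call in MIA PaCa-2 was lost in 13 of 21 alternatives (log2 fold change -2.65 to -2.20), and in PANC-1 it was gained in 4 (-2.42 to -1.72). Over the whole table the 2 calls in MIA PaCa-2 became 21 with DESeq2, 29 with DESeq2 without PANC-1 RBM3 siRNA 3 and 1 with limma-voom, and they became 0 in 13 of 21 alternatives, among them median-of-ratios factors, the filter at 1 CPM, the replicate block and 10 of the 12 single-library removals. The 0 calls in PANC-1 became 3 with DESeq2 and 230 without a filter on low counts, and the 0 calls for the difference of the responses became 3 and 107, with 0 members among them. The largest shift of the median of all genes with another scaling was 0.04.

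With a replicate block, 7 members were higher and 5 lower between the lines under control siRNA, and 8 and 5 with RBM3 siRNA. The block removed the call of SREBF2 under control siRNA and added PMVK with RBM3 siRNA. Deviations of the 13 same-numbered pairs of libraries correlated between -0.478 and 0.148, with 2 over 0.1. Only 4 of these pairs lay within a line, so they cannot decide whether shared numbers pair the samples, which the labels do not say. At 3 libraries a group, a median SE of 0.26 limits what could be detected in a member, and ELOVL6, STARD4 in MIA PaCa-2 and CYP51A1 rest on few counts.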

Other observations

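The neighbours of STARD4 on chromosome 5 were read as values, a choice made after the absence of STARD4 counts in MIA PaCa-2 was seen. Over the 6 libraries of each line, SLC25A46, a mitochondrial carrier gene, was at 53.3 ± 12.1 CPM in MIA PaCa-2 and 54.1 ± 6.80 CPM in PANC-1, and WDR36, a ribosome biogenesis gene, was at 93.6 ± 22.7 and 69.7 ± 16.8 CPM (SD, n = 6 libraries of 2 siRNA conditions each). CAMK4, the nearest protein-coding gene on that side, had 17 and 18 counts in all. Of the 8 neighbours read, 4 on each side, 5 passed the filter on low counts. Between the lines under control siRNA 2 of these passed the test, beside 50.8% of all genes tested. These were the 2 nearest on the other side. NREP had 25 counts over the MIA PaCa-2 libraries and 1450 over those of PANC-1, 0.158 ± 0.104 against 9.48 ± 4.12 CPM. Under control siRNA its log2 fold change was 6.27 (edgeR adjusted p = 1.35e-05). EPB41L4A had 15 and 81 counts, with a log2 fold change of 2.41 (edgeR adjusted p = 0.0478). APC, next on that side, had 511 and 518 counts and did not pass (log2 fold change -0.45, edgeR adjusted p = 0.528).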
